A study of Mus musculus with 36 samples.

Results

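Bone morphogenetic protein (BMP) signalling and its Id target genes were followed through 10 genes picked by name: the ligands Bmp4 and Bmp7, the type I receptor Bmpr1a, the inhibitory SMAD proteins Smad6 and Smad7, the secreted antagonist Nog (noggin), and Id1, Id2, Id3 and Id4. All 10 were found by symbol among the 40205 genes of the count tables. RNA was sequenced from fetal mouse neural stem cells (NSCs) grown as floating neurospheres and from the extracellular vesicles (EVs) that the same cultures released into the medium. The NSCs came from the dorsal telencephalon, the part of the forebrain that becomes isocortex, of C57BL/6J fetuses at gestational day 12.5. The labels give the genotype as WT, and the study's methods name the mice as the Ai14 line. Tissue of 1 pregnancy was pooled by fetal sex, so that each of the 3 pregnancies (sets 3, 4 and 5) gave 1 culture per sex, written here as 3F, 4F, 5F, 3M, 4M and 5M. Cultures at passages 7 to 10 were kept in serum-free mitogenic medium for 5 days with 0 mg/dL ethanol (control), 120 mg/dL (26 mM) or 320 mg/dL (70 mM). Each culture and dose gave 1 cell library and 1 EV library, so that there were 18 cell and 18 EV libraries. The 3 doses of a culture share their donor tissue, and the 6 cultures come from only 3 pregnancies, so p-values over libraries measure spread among related samples.

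BMP ligands bind pairs of type I and type II receptors, the type I receptor phosphorylates SMAD1, SMAD5 or SMAD9, and these enter the nucleus with SMAD4. Id1, Id2 and Id3 are direct targets that this complex switches on. The Id proteins bind E proteins but cannot bind DNA, and thereby hold back the basic helix-loop-helix factors that drive neuronal differentiation. SMAD6 and SMAD7 block the receptors from inside the cell and are themselves induced by the pathway, while noggin traps BMP ligands outside the cell. In the embryonic telencephalon, BMPs pattern the dorsal midline, and Id proteins help to keep progenitors undifferentiated.

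On the GRCm39 assembly (GENCODE annotation), Id1 lies at chr2:152566218-152579544, Id2 at chr12:25143798-25147282, Id3 at chr4:135870808-135873066 and Id4 at chr13:48414558-48419502. Bmp4 lies at chr14:46620250-46636745, Bmp7 at chr2:172709805-172782410, Bmpr1a at chr14:34132687-34225379, Smad6 at chr9:63860341-63929793 and Nog at chr11:89191464-89193158. Smad6, Smad7 and Nog overlap no other annotated gene. The span of each of the other 7 members, introns included, overlaps that of a long noncoding RNA gene on the opposite strand. Whether their exons overlap was not examined. The library kit keeps strand, but the strand setting used in counting is not given in the sources used here. Whether the reads of these 7 members and of their antisense partners were kept apart is therefore not known. The span of Bmp7 also overlaps that of a counted long noncoding RNA gene on its own strand, Gm40010. A strand setting would not separate any exon bases that they share.

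The DNA before the transcription start is shown for GGCGCC, a palindrome bound by BMP-activated SMADs, since Id1, Id2 and Id3 are its best known targets. GGCGCC was found in the 2000 bases before the start of the canonical transcript of 6 of the 10 members (Id1, Id2, Id4, Bmpr1a, Smad6 and Nog) and of 18.3% of 21770 protein-coding genes. The motif reads the same on both strands, and matches may overlap other motifs. The stretches are written along the gene's own strand with the GGCGCC letters in capitals, and in the last Id2 stretch GTCT is also in capitals.
Id1, chr2:152577042-152577107, plus strand, motif at -1093 to -1088 from the start: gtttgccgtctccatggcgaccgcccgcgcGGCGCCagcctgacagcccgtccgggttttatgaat
Id2, chr12:25148886-25148951, minus strand, motif at -1639 to -1634: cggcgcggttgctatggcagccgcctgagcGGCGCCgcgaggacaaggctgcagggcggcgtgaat
Id2, chr12:25148832-25148897, minus strand, motif at -1585 to -1580: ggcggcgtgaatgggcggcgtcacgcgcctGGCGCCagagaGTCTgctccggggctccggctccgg
Id4, chr13:48414414-48414479, plus strand, motif at -114 to -109: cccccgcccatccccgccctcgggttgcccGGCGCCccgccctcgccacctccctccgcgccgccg
Smad6, chr9:63930308-63930373, minus strand, motif at -932 to -927: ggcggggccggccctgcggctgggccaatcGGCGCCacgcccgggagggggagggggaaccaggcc
GGCGCC followed after 5 further bases by GTCT, searched on both strands and chosen after the data were seen, occurred in 33 of the 21770 windows (0.152%) and among the members only before Id2. Id3 held no GGCGCC in its window. GTCTG, the short SMAD-binding element, was searched on both strands and was found before all 10 members and before 98.4% of all genes.

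Counts were scaled as counts per M (CPM, M standing for mega) with edgeR's TMM factors over the 36 libraries. Totals were 0.959 to 5.51 M counts in EVs and 26.6 to 55.3 M in cells, and 6 of the 18 EV libraries held fewer than 2 M, among them all 3 of culture 4F. The summed CPM of 10 neural stem cell markers was 2931 to 4527 in cells, with 703 to 1402 in EVs, and 9 of the 10 averaged at least 1 CPM in both. Sox2, a defining marker of these cells, was listed at 0 in all 36 libraries, and so was the astrocyte marker Aqp4. The reason was not tested, and these entries are not read as absence of the RNA. In cells, 4 of 5 neuron, 5 of 5 oligodendrocyte lineage and 3 of 4 astrocyte markers also averaged at least 1 CPM, with sums of 475 to 992, 56.5 to 188 and 21.3 to 269. By mean CPM these sums were mostly Map2 (689), Olig2 (94.7) and Gfap (97.6) in that order. The other neuron markers averaged 0.015 to 18.6 CPM. No marker of microglia, endothelium, fibroblasts and mural cells, choroid plexus or blood reached a mean of 1 CPM in cells, where each sum stayed at or below 3.20 CPM. In EVs these sums reached 10.3, 14.2, 16.6, 31.7 and 1.19 CPM in that order.

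Per kilobase of canonical transcript, the cells held most Id3 (34.3 ± 32.6 CPM per kb, SD, n = 18), Bmpr1a (26.7 ± 3.74), Id2 (23.1 ± 14.3) and Id1 (14.5 ± 12.1). The SDs of these genes overlapped, and the genes were not compared within each library. Nog (4.23 ± 2.97), Bmp7 (3.42 ± 1.10) and Id4 (2.04 ± 0.957) followed, and Smad7 (0.955 ± 0.337) and Smad6 (0.648 ± 0.605) were low. In EVs the members lay closer together, from Bmpr1a (8.33 ± 2.24 CPM per kb), Id3 (5.92 ± 2.94), Bmp7 (5.42 ± 2.73) and Nog (5.12 ± 10.6) over Id2 (3.96 ± 1.23), Smad6 (3.91 ± 3.75), Smad7 (3.49 ± 3.11) and Id1 (3.07 ± 1.87) to Id4 (1.09 ± 0.751). The median over tested protein-coding genes was 3.93 CPM per kb in cells and 2.63 in EVs.

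Bmp4, the ligand of the dorsal midline and cortical hem, was close to absent. It had 0 to 4 counts in each cell library (14 counts over all 18, with 10 libraries at 0) and 0 to 2 in each EV library (11 counts, 9 libraries at 0). It did not pass the filter on low counts and has no test of its own in what follows. Per kilobase this was 0.00633 CPM in cells and 0.0966 CPM in EVs. In 3 alternative fits that did test it, Bmp4 was higher in EVs, with log2 fold changes of 4.28 (DESeq2, which called 75.2% of all genes, adjusted p = 4.2e-09), 3.12 (edgeR without the filter, adjusted p = 3.3e-05) and 3.30 (edgeR with EV and cell library paired, adjusted p = 0.00016). These rest on the 25 counts given above, a count of 0 allows up to 3 counts, and the span of Bmp4 overlaps those of 2 counted antisense genes.

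The first question was how RNA of these genes in EVs compared with RNA in the cells of origin. Of the 9 members tested, 5 were lower in EVs (Id1, Id2, Id3, Id4 and Bmpr1a), 3 were higher (Bmp7, Smad6 and Smad7) and Nog did not pass the threshold. Over all 17758 genes tested, 81.7% passed the same threshold, 38.1% as higher and 43.7% as lower in EVs, so the 8 of 9 members called are near the background. With the fit scaled by library totals 35.3% of the calls were higher in EVs, against 46.6% with TMM factors, 56.4% with median-of-ratios factors, 57.5% without the filter on low counts and 72.9% with DESeq2. The median of all genes shifted by -0.51 on the log2 scale with library totals and by 0.35 with median-of-ratios factors. The members kept their direction under these 4 settings apart from Nog. With library totals the fold changes of Id1, Id3 and Smad7 (log2 values of -2.79, -3.09 and 1.21) moved by over 1.5 times. The median log2 fold change was -0.95 over the 9 members and -0.14 over all genes. A lower share in EVs says nothing of copies per vesicle, and in these bulk samples fewer cells of a type and less RNA per cell cannot be told apart.

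**Figure D1:**
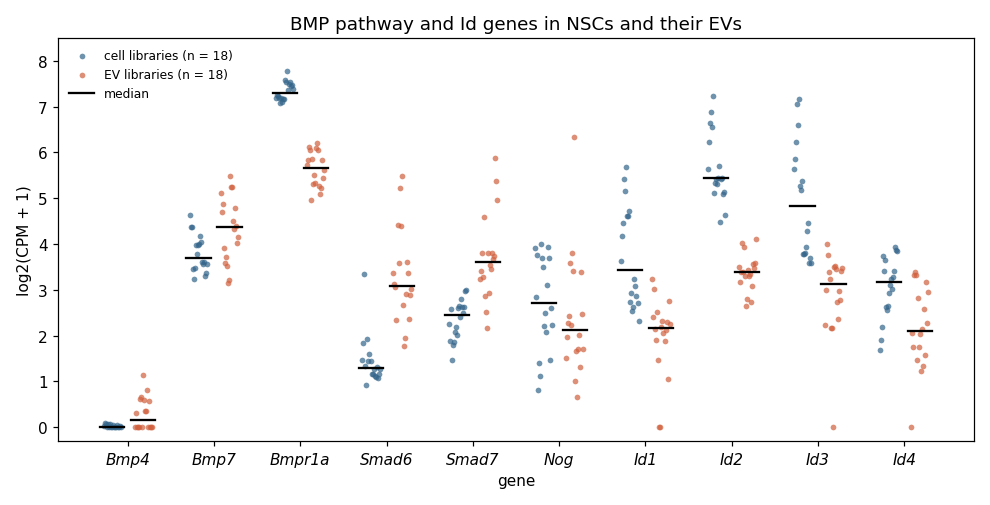
Levels of the 10 genes as log2(CPM + 1) in 18 cell libraries (blue) and 18 EV libraries (orange), 1 point per library, with the median as a bar. The clouds of Id2 and Bmpr1a are separate, those of Smad6 and Smad7 lie higher in EVs, and Bmp4 sits at or near 0 in both.

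Bmpr1a, which carries the BMP signal into the cell, ranged in cells from 135 to 218 CPM with a median of 157, and in EVs from 30.0 to 72.6 CPM with a median of 49.9. The ranges did not overlap. The log2 fold change by edgeR's quasi-likelihood test was -1.68, with an SE of 0.11 and an adjusted p of 6.9e-17, a 3.21-fold lower level in EVs, and it was lower in 6 of 6 cultures.

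Id2 ranged from 21.2 to 149.9 CPM in cells (median 42.2) and from 5.23 to 16.1 CPM in EVs (median 9.47). Here too the ranges did not overlap, which held for 2 of the 10 members and for 23.0% of all tested genes. Its log2 fold change of -2.53 (SE 0.21, adjusted p = 2.0e-13, edgeR) amounts to a 5.79-fold lower level. Id3 ranged from 11.0 to 142 CPM in cells (median 28.1) and from 0 to 15.0 in EVs (median 7.70), with overlap between the richest EV and the poorest cell libraries. For Id3 edgeR gave -2.50 on the log2 scale (SE 0.38, adjusted p = 4.7e-07), which did not differ from Id2 beyond the SE, and -1.31 without pregnancy set 3. Id1 ranged from 3.98 to 50.0 CPM in cells (median 9.87) and from 0 to 8.39 in EVs (median 3.50), again with overlap. For Id1 edgeR gave -2.20 on the log2 scale (SE 0.39, adjusted p = 4.4e-06) and -1.53 without set 3. Id1 rested on at most 24 counts in an EV library, with 2 EV libraries at 0 (4F at 120 and at 320 mg/dL).

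Id4, the member of the family that is least tied to BMP and that can oppose the other Id proteins, ranged from 2.20 to 14.2 CPM in cells (median 8.03) and from 0 to 9.54 in EVs (median 3.28). The ranges overlapped widely. Its log2 fold change of -0.95 (SE 0.24, adjusted p = 0.00040, edgeR) was smaller than those of the other Id genes, and it was lower in EVs in 6 of 6 cultures.

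Both inhibitory SMADs lay on the other side. Smad6, which acts mainly on BMP receptors, ranged from 0.903 to 9.13 CPM in cells (median 1.45) and from 2.41 to 43.9 in EVs (median 7.52). Apart from the 3F cell library at 320 mg/dL, which had the 9.13 CPM, the highest cell value was 2.78 CPM. By edgeR the log2 fold change of Smad6 was 2.47 (SE 0.30 and adjusted p = 1.7e-09), a 5.53-fold higher level in EVs. Smad7, which acts on TGF-beta as well as BMP receptors, ranged from 1.76 to 7.03 CPM in cells (median 4.47) and from 3.49 to 57.8 in EVs (median 11.2). By edgeR that of Smad7 was 1.81 (SE 0.27 and adjusted p = 1.9e-07), or 3.50-fold, and both Smad6 and Smad7 were higher in EVs in 6 of 6 cultures. EV counts of Smad6 were 9 to 62 per library. Without the 6 EV libraries under 2 M counts its log2 fold change was 1.62 (edgeR).

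Bmp7, a ligand made in the dorsal midline and meninges, ranged from 8.43 to 23.9 CPM in cells (median 12.0) and from 7.85 to 43.7 in EVs (median 19.6). The edgeR log2 fold change of 0.71 (SE 0.19, adjusted p = 0.00095) went with a higher EV level in 5 of 6 cultures and a lower one in 4F. With library totals in place of TMM factors it was 0.21 (adjusted p = 0.33), without the filter on low counts 0.38 (adjusted p = 0.073), and with the 3 doses of each culture summed 0.45 (adjusted p = 0.22). The call of Bmp7 is lost under these 3 settings. Nog ranged from 0.746 to 14.9 CPM in cells (median 5.62) and from 0.572 to 79.5 in EVs (median 3.37), and edgeR gave 0.16 on the log2 scale (SE 0.42, adjusted p = 0.72). It was higher in EVs in 3 cultures and lower in 3. The 79.5 CPM come from 67 counts in the shallow 4F EV library at 320 mg/dL, and without the 6 EV libraries under 2 M counts the log2 fold change of Nog was -0.85 (adjusted p = 0.051, edgeR).

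Of 48 other pathway genes in 6 lists, 35 were tested, and 31 of these passed in 1 direction or the other. Over all genes tested 81.7% passed, 38.1% as higher and 43.7% as lower in EVs, so this count is near the background. Among ligands 3 were higher and 1 lower of 4 tested, with Bmp5 at a log2 fold change of 3.36 (SE 0.19), Bmp6 at 2.27 (SE 0.17) and Bmp2 at -3.61 (SE 0.65). Of 8 receptors and co-receptors 2 were higher, the activin receptor Acvr2b (3.59, SE 0.19) and the co-receptor Eng (2.79, SE 0.43), and 5 were lower, including the related type I receptor Bmpr1b (-2.06, SE 0.20). Of the 4 transducing SMADs, Smad5 (1.82, SE 0.14), Smad9 (0.82, SE 0.21) and Smad4 (0.34, SE 0.11) were higher and Smad1 did not pass. The value of Smad4 is smaller than the shift between scalings given above. The list of intracellular and membrane restraints split into 2 higher and 3 lower, among them the co-repressor Ski (1.12, SE 0.17), the ubiquitin ligase Smurf2 (-1.04, SE 0.10) and the pseudoreceptor Bambi (-1.97, SE 0.34). Among secreted antagonists and modulators, the chordin-cleaving protease Bmp1 (-2.23, SE 0.12), Chrdl1 (-2.13, SE 0.17) and the activin and BMP antagonist follistatin, Fst (-1.97, SE 0.40), were lower. Of 6 E proteins and BMP-induced factors 3 were higher, Atoh8 (3.15, SE 0.23), Tcf3 (2.82, SE 0.35) and Dlx5 (2.16, SE 0.24), and 3 were lower. In EVs Smad5 averaged 548 ± 217 CPM, with 149 ± 18.3 CPM in the cells (SD, n = 18 each). The lists of ligands, receptors, restraints and induced factors each held calls in both directions. Of the genes named, Bmp2 and Fst rest on at most 4 counts in an EV library, Bambi on at most 5 and Dlx5 on at most 8.

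**Figure D2:**
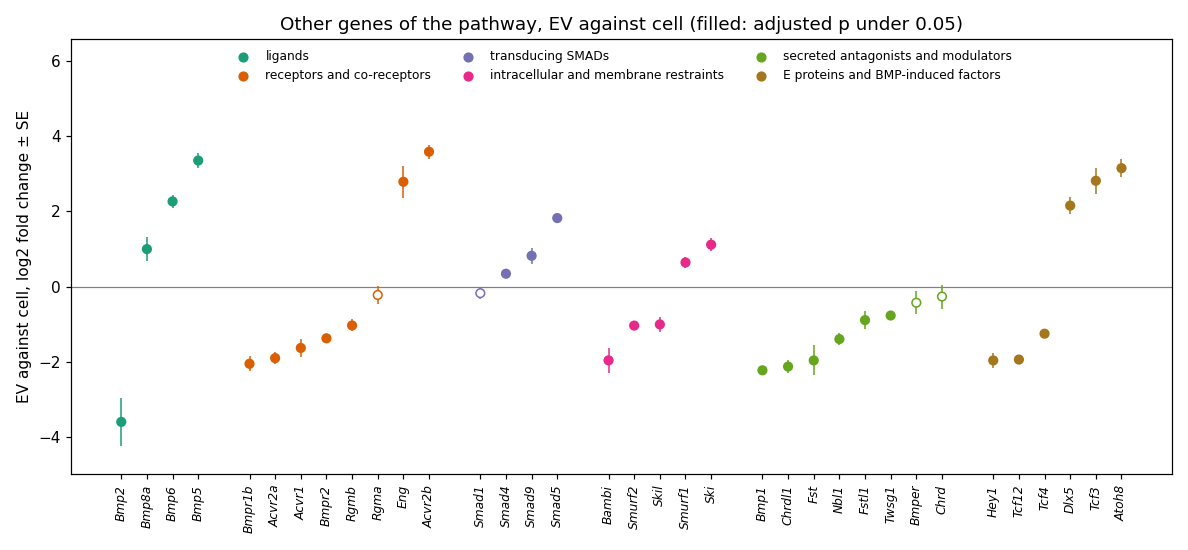
Log2 fold change, EV against cell, with its SE for the 35 tested pathway genes that are not among the 10, ordered within their list. Filled points passed an adjusted p of 0.05. Smad5, Smad9 and Smad4 lie above 0, and the ligands, receptors, restraints and induced factors lie on both sides of 0.

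The second question was whether ethanol changed these genes within each culture. No member passed the threshold at either dose in cells or EVs. In edgeR with the culture as a block, 0.0% of 18725 genes passed at 120 mg/dL and 0.032% at 320 mg/dL in cells, and 0.0% and 0.364% of 13193 genes in EVs. At 120 mg/dL, where no gene passed, 461 genes in cells and 780 in EVs had an unadjusted p under 0.05, and DESeq2 called 4 and 13. The members are therefore given by their values.

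**Figure D3:**
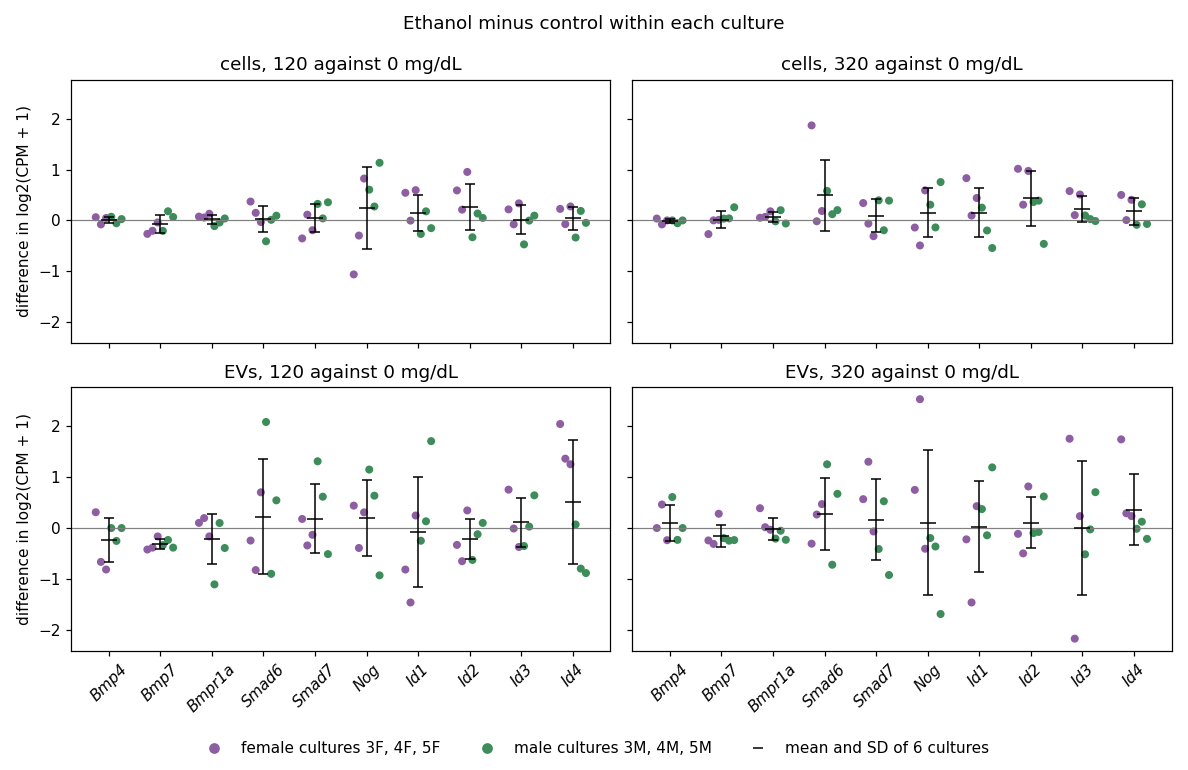
Difference in log2(CPM + 1) between a dose and the control of the same culture, 1 point per culture (purple female, green male), with the mean and SD of the 6 cultures in black. Bmp7 in EVs at 120 mg/dL is the only gene with all 6 points on one side of 0. The points of Id1, Id3 and Id4 spread more widely in EVs than in cells at both doses, and those of Nog at 320 mg/dL.

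In cells, Id2 ranged from 21.2 to 116 CPM without ethanol (median 36.2, n = 6), from 34.2 to 92.3 at 120 mg/dL (median 42.3) and from 23.7 to 149.9 at 320 mg/dL (median 46.8). The dose groups overlapped throughout. At 320 mg/dL the log2 fold change of Id2 was 0.44 (SE 0.17, unadjusted p = 0.021, adjusted p = 0.51, edgeR), and it was above its control in 5 of 6 cultures, by 1.01 in 3F, 0.97 in 5F, 0.39 in 4M, 0.36 in 3M and 0.31 in 4F on the log2(CPM + 1) scale, and below it in 5M (-0.46). Id3 in cells at 320 mg/dL had a log2 fold change of 0.22 (SE 0.10, unadjusted p = 0.037, adjusted p = 0.57, edgeR), with differences to control of 0.58 in 3F, 0.51 in 5F and between -0.01 and 0.10 in the other cultures. Id1 (0.16, SE 0.16) and Id4 (0.20, SE 0.10) had adjusted p of 0.83 and 0.63 in the same fit. Cultures 3F and 5F thus had the largest rises over their own control for all 4 Id genes at 320 mg/dL, while 5M lay below its control for each of them.

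Smad6 in cells ranged from 1.11 to 1.77 CPM in controls (median 1.38), from 0.903 to 2.59 at 120 mg/dL (median 1.25) and from 1.42 to 9.13 at 320 mg/dL (median 1.60). At 320 mg/dL the log2 fold change of Smad6 was 0.76 (SE 0.28, unadjusted p = 0.017, adjusted p = 0.50, edgeR). The differences to control were 1.87 in 3F, 0.58 in 3M and between -0.02 and 0.20 in the other 4 cultures. Culture 3F stood apart. An unadjusted p under 0.05 was reached by 3 of 9 members here (Id2, Id3 and Smad6) and by 8.25% of all genes tested. The intervals of ± 2 SE at 320 mg/dL in cells were narrowest for Bmpr1a, from -0.05 to 0.19, and for Bmp7, from -0.15 to 0.17. That of Nog ran from -0.42 to 0.70 and that of Smad7 from -0.18 to 0.42.

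In EVs, Bmp7 ranged from 10.5 to 43.7 CPM in controls (median 20.9), from 7.85 to 37.0 at 120 mg/dL (median 17.2) and from 8.30 to 36.6 at 320 mg/dL (median 21.7). At 120 mg/dL it lay below its control in 6 of 6 cultures, by -0.16 to -0.42 on the log2(CPM + 1) scale, which gives the smallest two-sided p (0.03125) that an exact sign-flip test over 6 cultures allows. It was 1 of 40 such tests and the only one under 0.05, and all 6 cultures moved one way for 2.99% of all genes tested. In edgeR its log2 fold change was -0.30 (SE 0.13, unadjusted p = 0.032, adjusted p = 0.82), against 5.91% of all genes with an unadjusted p under 0.05. At 320 mg/dL it was -0.14 (SE 0.13, adjusted p = 0.81), with 5 of 6 cultures below their control.

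Changes of the Id genes in EVs were scattered. Id3 at 320 mg/dL ran from -2.18 in 4F, where the library held 0 counts, to 1.76 in 3F, and edgeR gave 0.33 on the log2 scale (SE 0.26, adjusted p = 0.73). Id4 at 120 mg/dL ran from -0.89 in 5M to 2.05 in 3F. Nog at 320 mg/dL ran from -1.69 in 5M to 2.53 in 4F. The intervals of ± 2 SE at 320 mg/dL in EVs were -0.25 to 0.24 for Bmpr1a, -0.42 to 1.10 for Id1 and -0.84 to 1.98 for Nog. The upper limits of Nog, Id1 and Smad6 (1.09) lay above 1 log2 unit, and those of the other members below it. The EV to cell ratio, tested as the difference between the ethanol changes in EVs and in cells, also called no member. It called 0.00469% of 21333 genes at 120 mg/dL and 0.0% at 320 mg/dL (1373 genes at an unadjusted p under 0.05, 248 by DESeq2), and the lowest adjusted p among the members was 0.95. None of the other pathway genes passed in any of these 6 comparisons, of 40 tested in cells, 28 in EVs and 38 for the ratio.

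Next, the cultures themselves were compared, since the 3 doses of a culture stayed close together. Of the spread of log2(CPM + 1) over the 18 cell libraries, the culture held 98.1% for Id3, 95.8% for Id4, 95.6% for Id1, 94.2% for Bmp7, 89.3% for Bmpr1a, 88.9% for Nog, 83.6% for Smad7, 83.1% for Id2 and 49.0% for Smad6. All 9 tested members differed among the 6 cultures in cells (edgeR, F test of culture with dose as a term), against 67.6% of all genes. The log2 range from the lowest to the highest culture was 3.52 for Id3 (adjusted p = 5.9e-10), 3.35 for Nog (6.8e-05), 3.08 for Id1 (8.3e-08), 2.29 for Id4 (9.1e-08) and 2.03 for Id2 (1.6e-05), against a median range of 1.00 over all genes. Bmpr1a had the narrowest range, 0.47 (adjusted p = 0.00097).

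**Figure D4:**
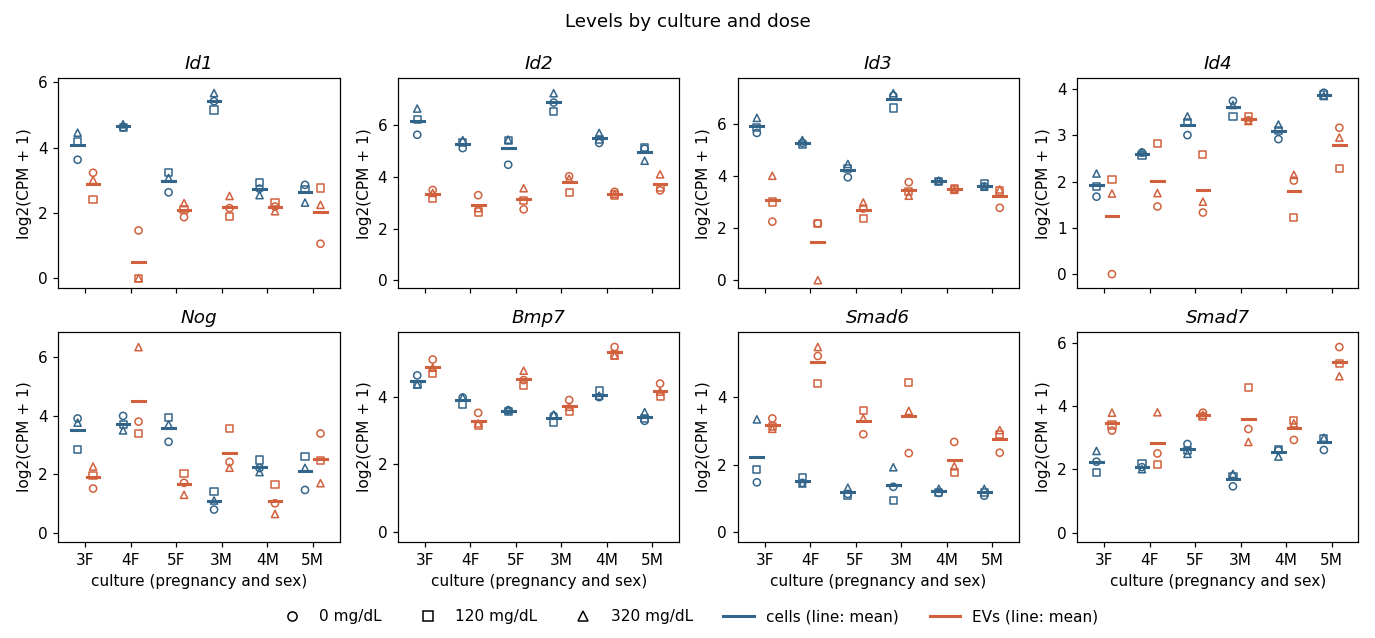
Levels of 8 members as log2(CPM + 1) by culture in cells (blue) and EVs (orange), with a symbol for each dose and a line at the mean of the 3 doses. In cells Id1, Id2 and Id3 are highest in 3M and Nog is highest in the 3 female cultures. In EVs Smad6 is highest in 4F and Smad7 in 5M.

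Id3 in cells averaged 124 ± 24.7 CPM in 3M (SD over the 3 doses, n = 3), 59.8 ± 12.5 in 3F, 37.7 ± 2.46 in 4F, 17.9 ± 3.28 in 5F, 12.9 ± 0.159 in 4M and 11.3 ± 0.501 in 5M. In this order every library of a culture lay above every library of the next one. Id1 averaged 42.2 ± 7.69 CPM in 3M, 24.1 ± 0.997 in 4F and 16.5 ± 4.84 in 3F, which were apart from each other. Id1 in 5F (6.99 ± 1.62), 4M (5.71 ± 0.871) and 5M (5.26 ± 1.16) overlapped. Id2 was highest in 3M (119.5 ± 28.9 CPM) and 3F (73.6 ± 25.3) and averaged 44.1 ± 6.28 in 4M, 38.2 ± 4.21 in 4F, 35.2 ± 12.2 in 5F and 30.3 ± 5.74 in 5M, with overlap between each pair of neighbours. All 3 genes were thus highest in 3M and lowest in 5M. Without pregnancy set 3, the range of Id2 among the cultures was 0.52 (adjusted p = 0.24, edgeR).

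Id4 did not follow them. It averaged 13.8 ± 0.368 CPM in 5M, 11.2 ± 1.44 in 3M, 8.48 ± 1.32 in 5F, 7.54 ± 0.932 in 4M, 5.10 ± 0.184 in 4F and 2.82 ± 0.667 in 3F, so the culture with the least Id3 had the most Id4. Nog averaged 12.4 ± 2.33 CPM in 4F, 11.3 ± 3.37 in 5F and 10.9 ± 4.15 in 3F, and 3.83 ± 0.714 in 4M, 3.51 ± 1.66 in 5M and 1.19 ± 0.455 in 3M. Its 9 female cell libraries lay at or above 6.16 CPM and its 9 male ones at or below 5.08 CPM. These are 3 cultures of each sex at 3 doses, not 9 independent samples. How many of all genes separated the sexes in this way was not counted. Smad7 was lowest in 3M (2.28 ± 0.460 CPM) and highest in 5M (6.34 ± 1.05), and Bmp7 was highest in 3F (21.1 ± 2.44) and lowest in 3M (9.49 ± 0.925).

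Other cell type markers also differed among the cultures. Astrocyte markers summed to 229 CPM on average in 3M cells and 241 in 5M cells, against 29.6 to 89.2 in the other cultures, and neural stem cell markers to 4059 in 3M and 3028 to 3751 elsewhere. Neuron markers summed to 486 CPM in 3M cells and 608 to 967 elsewhere, and oligodendrocyte lineage markers to 68.3 in 3M and 68.2 in 5M, against 104 to 172 in the other cultures. The astrocyte sums were mostly Gfap (191 CPM in 3M and 205 in 5M), and S100b and Aldh1l1 were also highest in 3M and 5M. In the stem cell list only Vim (2101 CPM) and Hes1 (25.1) were highest in 3M, and Sox9 (21.1) was lowest there. The neuron sums were mostly Map2 (476 CPM in 3M), and the oligodendrocyte lineage sums mostly Olig2. The part of these markers in the differences of the Id genes was not tested. Across the 18 cell libraries, which share 6 cultures, the mean standardized level of Id1, Id2 and Id3 correlated with Smad7 at r = -0.86, with Bmpr1a at -0.68, with Smad6 at 0.47, with Nog at -0.27, with Id4 at -0.19 and with Bmp7 at 0.03. Of 8375 genes with a mean of at least 10 CPM, the 5 most like it were led by Erg28 (r = 0.961). The kinase gene Melk (0.960), the mitotic kinase gene Mastl (0.960), Eri2 (0.958) and the kainate receptor auxiliary subunit gene Neto2 (0.957) followed. Melk averaged 28.7 CPM in 3M and 9.78 in 5M. These values describe 18 related libraries.

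In EVs, Id1, Id2 and Id3 did not pass the test among cultures. The range among cultures was 2.43 for Id1 (adjusted p = 0.17), 1.52 for Id3 (adjusted p = 0.071) and 0.62 for Id2 (adjusted p = 0.11), by edgeR, while Id4, Bmp7, Bmpr1a, Smad6, Smad7 and Nog did, 6 of 9 members against 51.2% of all genes. Id3 in EVs averaged 10.2 ± 0.217 CPM in 4M, 10.1 ± 2.09 in 3M, 8.56 ± 5.79 in 3F, 8.54 ± 2.36 in 5M, 5.58 ± 1.35 in 5F and 2.33 ± 2.02 in 4F. The 3M EV libraries, from the culture with most Id3 in its cells, overlapped those of 4M, 3F and 5M. Without the filter on low counts, Id1, Id2 and Id3 passed as well (adjusted p = 0.030, 0.050 and 0.00039). For this setting and those that follow, the share of all genes called is not set beside the members. With library totals Id1 (0.017) and Id3 (0.0023) passed and Bmpr1a (0.073) did not, Id3 passed without set 3 (0.017), and Id2 passed without the 6 EV libraries under 2 M counts (0.041). Without those libraries the range of Id1 was 0.45, that of Smad6 1.44 and that of Nog 2.20. Smad6 in EVs averaged 33.4 ± 12.2 CPM in 4F and between 3.55 and 11.9 in the other cultures (range 3.62, adjusted p = 0.00072, edgeR), and without pregnancy set 4 its range was 0.65 (adjusted p = 0.33). Smad7 in EVs averaged 42.7 ± 14.1 CPM in 5M and 7.07 to 12.7 elsewhere (range 2.45, adjusted p = 0.00095, edgeR), and without pregnancy set 5 its range was 0.33 (adjusted p = 0.91). The 4F EV libraries are all under 2 M counts, and the part of depth in the Smad6 value was not tested. In cells, Bmpr1a (range 0.23, adjusted p = 0.13) without set 4 and Smad6 (1.51, 0.055) without set 5 no longer passed, nor in EVs did Id4 (1.30, 0.098) and Nog (4.68, 0.051) without set 3, Nog (1.20, 0.19) without set 4, and Bmpr1a (0.38, 0.37) without set 5. The 5M EV libraries each held over 2 M counts, with 268, 125 and 80 Smad7 counts at 0, 120 and 320 mg/dL.

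**Figure D5:**
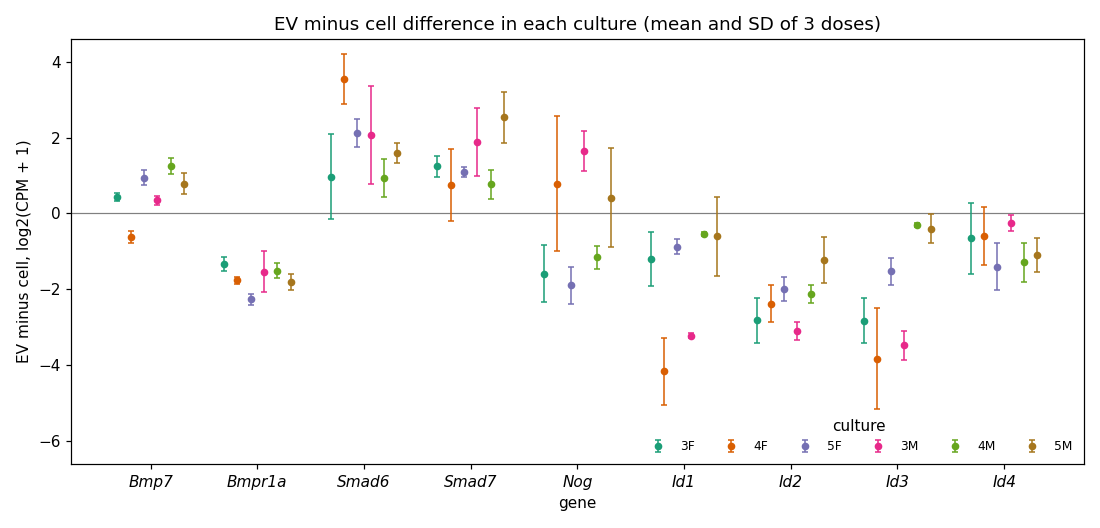
EV minus cell difference in log2(CPM + 1) by culture for the 9 tested members, as the mean and SD of the 3 doses. Bmpr1a and Id2 lie below 0 in all 6 cultures. Id3 is near 0 in 4M and 5M and lowest in 4F and 3M, and Bmp7 and Nog lie on both sides of 0. The 4F values of Id1 and Id3 rest on at most 6 counts in an EV library.

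The gap between EVs and cells accordingly differed from culture to culture. On the log2(CPM + 1) scale the EV minus cell difference of Id3 was -3.82 ± 1.34 in 4F (SD over 3 doses, n = 3), -3.48 ± 0.39 in 3M, -2.83 ± 0.59 in 3F and -1.53 ± 0.36 in 5F, but -0.40 ± 0.38 in 5M and -0.30 ± 0.04 in 4M. For Id1 it was -4.16 ± 0.87 in 4F and -3.23 ± 0.07 in 3M, against -1.20 to -0.55 in the other 4 cultures. The 4F EV libraries held 3, 0 and 0 counts of Id1 and 6, 4 and 0 counts of Id3 at 0, 120 and 320 mg/dL. The 4F differences of both genes thus lie at the floor and do not measure the size of the gap. For Bmpr1a the EV minus cell difference stayed between -2.27 and -1.33. Bmp7 was lower in EVs than in cells in 4F (-0.62 ± 0.16) and higher in the other 5 cultures, up to 1.25 ± 0.21 in 4M. Nog was lower in EVs in 3F, 5F and 4M (-1.59, -1.90 and -1.15) and higher in 3M (1.63), 4F (0.78 ± 1.78) and 5M (0.42 ± 1.32). A test of location by culture, added after the data were seen, called 8 of 9 members (all but Id4, adjusted p = 0.054, edgeR), against 46.0% of all genes. The lowest adjusted p was 3.3e-09, for Id3. Without the 6 EV libraries under 2 M counts, and so without culture 4F, Id1 (adjusted p = 0.075) and Smad6 (0.14) no longer passed in edgeR, Id4 did (0.040), and Id3 remained lowest (8.3e-07). Leaving out 1 pregnancy set also ended calls, those of Id2 (range 1.07, adjusted p = 0.074) and Nog (3.32, 0.056) without set 3, of Bmp7 (0.56, 0.16) and Smad6 (1.72, 0.066) without set 4, and of Id2 (0.88, 0.090) and Bmpr1a (0.62, 0.37) without set 5.

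Last, the sexes were compared with the counts of a culture's 3 doses summed and the pregnancy as a block, which leaves 3 female and 3 male samples. No member passed, in cells against 0.0323% of 21690 genes called or in EVs against 0.0% of 16152 (3760 at an unadjusted p under 0.05, 13 by DESeq2). Nog came nearest in cells, with a log2 fold change of 2.08 for female against male (SE 0.38, unadjusted p = 0.0019, adjusted p = 0.44, edgeR), higher in the female culture in 3 of 3 pregnancies. With DESeq2, which called 1.8% of all genes, it was 2.05 (adjusted p = 5.5e-05) and with library totals 2.03 (adjusted p = 0.024), which both passed. Id4 in cells was -1.15 (SE 0.39, unadjusted p = 0.027, adjusted p = 0.61), lower in the female culture in 3 of 3 pregnancies. In EVs Nog was higher in the female culture in 1 of 3 pregnancies (0.70, SE 1.74, adjusted p = 0.83). Smad6 in EVs passed without the filter on low counts (1.26, adjusted p = 0.021, edgeR), a setting that called 956 genes over all genes tested. It was higher in the female culture in 2 of 3 pregnancies. Its highest culture, 4F (33.4 ± 12.2 CPM), had under 2 M counts in each EV library. Id4 in EVs passed without pregnancy set 4 (-1.41, adjusted p = 0.027, edgeR). Calls over all genes with a pregnancy left out are given in the closing section. No other pathway gene passed, of 41 tested in cells and 30 in EVs.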

How the data were processed

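RNA from 18 EV and 18 cell libraries was sequenced with a stranded kit after ribosomal RNA depletion. The authors trimmed with Trimmomatic, aligned with STAR to mm39, removed duplicates and deposited raw HTSeq counts per gene. The strand setting is not given in the sources used here. The counts were tested here with edgeR 4.0.16 (quasi-likelihood, robust, TMM factors, filterByExpr, Benjamini-Hochberg over all genes tested, threshold 0.05) in R 4.3.3, with DESeq2 1.42.0 as an alternative. Ethanol fits carried the culture as a block, since all 18 pairs of libraries of a culture at different doses deviated together (correlations 0.435 to 0.843 in cells, 0.140 to 0.586 in EVs). EV and cell libraries were compared without a block, with the paired fit as an alternative. Sex was tested on counts summed over doses with the pregnancy as a block. Single genes were tested on log2(CPM + 1) by an exact two-sided sign-flip test over 6 cultures. Scripts were tested on simulated data. The 10 members, the pathway and marker lists and the tests were chosen with earlier results of these data known. A gene of the list of secreted antagonists and modulators is not reported here, so that list gets no count by direction. All 10 members are named, other pathway genes by the size of their change within their list, and the 5 genes most like Id1, Id2 and Id3 by Pearson's r over cell libraries. Depth sets the precision: an EV library held 0.959 to 5.51 M counts, so that low genes rest on a few counts. Other settings were library totals, median-of-ratios factors, no filter, each pregnancy left out, and EV libraries over 2 M counts alone.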

Additional observations from a re-analysis of the deposited data

Results flagged for a closer look

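In 60 groups of 6 libraries of 1 gene, location and dose, a single library stood far from the other 5 in 10 groups by Dixon's criterion. Chance alone meets it in about 1 group in 20 for independent, normally distributed values. The values here are CPM and the groups share their cultures, so the 10 groups cannot be set against that rate. In cells, culture 3M without ethanol had 116 CPM of Id2, with 48.5 in the next culture, and 133 CPM of Id3, with 48.9 in the next. Culture 3F at 320 mg/dL had 9.13 CPM of Smad6 in cells, with 2.78 in the next, and was the one cell library of its dose with any Bmp4 (0.0424 CPM). That value is 1 count against 0 in the other 5 libraries, which meets the criterion by construction and says nothing of Bmp4. In EVs, Id1 was 8.39 CPM in 3F without ethanol, from 9 counts, with 3.58 in the next culture. Smad6 was 36.3 CPM in 4F without ethanol and 43.9 CPM at 320 mg/dL, with 9.32 and 11.0 in the next. Smad7 was 57.8 CPM in 5M without ethanol and 30.0 CPM at 320 mg/dL, with 12.9 and 13.0 in the next. Nog was 79.5 CPM in 4F at 320 mg/dL, with 3.82 in the next. The 4F values come from EV libraries under 2 M counts, and the part of depth in them was not tested.

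The EV against cell difference varied among cultures beyond the spread of their doses for 8 of 9 members, against 46.0% of all genes, in an edgeR test added after the data were seen. The adjusted p was 3.3e-09 for Id3, 8.6e-07 for Bmp7, 4e-05 for Id1, 0.00062 for Id2, 0.0019 for Smad7, 0.0042 for Smad6, 0.0047 for Bmpr1a and 0.0051 for Nog. Of these calls, those of Id3 and Smad7 held when any 1 pregnancy set or the 6 EV libraries under 2 M counts were left out, and each of the other 6 was lost in at least 1 of these fits.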

How the results depend on the processing

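Of 1118 member values recomputed, 1077 kept their side of the threshold, 25 lost a call, 16 gained one and 0 called values reversed, while 122 uncalled values, counted among the 1077, changed sign. Counts over all genes moved most. EV against cell gave 14517 calls, 23256 with DESeq2 and 21994 without the filter. Ethanol at 120 mg/dL gave 0 in cells (DESeq2 4, leaving out a pregnancy 0 to 2) and 0 in EVs (DESeq2 13, library totals 1, no filter 24, leaving out a pregnancy 0 to 361). At 320 mg/dL it gave 6 in cells (DESeq2 94, median-of-ratios factors 0, library totals 0, leaving out a pregnancy 0 to 1) and 48 in EVs (DESeq2 267, library totals 17, no filter 136, leaving out a pregnancy 0 to 420, the highest without set 4). The ratio gave 1 at 120 mg/dL (DESeq2 16, no filter 0, leaving out a pregnancy 0 to 1) and 0 at 320 mg/dL (DESeq2 248, median-of-ratios factors 1, library totals 1). Sex gave 7 in cells (DESeq2 315, library totals 68, leaving out a pregnancy up to 14, libraries not summed 3078) with 0 members (DESeq2 1, library totals 1, libraries not summed 2), and 0 in EVs (DESeq2 13, median-of-ratios factors 1, library totals 1, no filter 956, leaving out a pregnancy up to 1206, libraries not summed 3777) with 0 members (no filter 1, leaving out a pregnancy 0 to 1). Among cultures, 6752 genes passed in EVs (leaving out a pregnancy 3395 to 6726) and 9804 for the ratio (leaving out a pregnancy 6003 to 7931). The cause was not tested.

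Without the culture block the ethanol counts at 320 mg/dL were 0 in cells and 0 in EVs, and without the pregnancy block sex gave 1 in EVs. With EV and cell library paired as a block, EV against cell gave 18489 calls over all genes and 9 members, Bmp4 among them. The paired libraries come from the same culture, their deviations correlated at a median of 0.0683, and no call of the 9 members tested without the block changed. The exact test of Bmp7 in EVs at 120 mg/dL cannot pass without a pregnancy, as 4 cultures are too few, and its mean difference was then -0.29 to -0.34.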
